A study of Mus musculus with 10 samples.

Results

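NF-κB is a family of dimeric transcription factors, and its activity is held in check by the IκB proteins. The 10 genes described here are the 5 that encode its subunits (Rel, Rela, Relb, Nfkb1 and Nfkb2) and 5 that encode IκB proteins (Nfkbia, Nfkbib, Nfkbie, Nfkbiz and Nfkbid). They were chosen by name from the 55573 genes of the deposited table and not by a threshold on their values, though earlier results of these data were known. All 10 passed the filter on low values described below. RNA was sequenced from mouse macrophages that had been differentiated from bone marrow in culture with M-CSF (BMDMs) after 4 hours of treatment. The study compared 5 groups of 2 libraries each, and every group came from female C57BL/6 WT mice. Control cells received vehicle. The polyU group received 5 μg poly-uridine ssRNA carried into the cells by the lipid DOTAP. A further group, PNPi+dG/rG, received 1 μM ulodesine, an inhibitor of purine nucleoside phosphorylase (PNP), with 5 μM deoxyguanosine and 5 μM guanosine. Cells of the PNPi+dG/rG+polyU group, called the combined treatment below, received all of these agents, and the last group received 1 ng/mL R848, an imidazoquinoline that activates TLR7. No group received ulodesine or the nucleosides alone, so the share of each in an effect cannot be told apart, and the labels do not say whether vehicle contained DOTAP. The labels call the libraries of a group biological replicates but do not name the mice or cultures behind them, so the p-values measure the spread between these libraries.

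TLR7 is an endosomal receptor for ssRNA that also binds guanine nucleosides, and it signals through MyD88 to the IκB kinase (IKK) complex. In resting cells the classical IκB proteins (IκBα, IκBβ and IκBε) retain NF-κB dimers in the cytoplasm, and their phosphorylation by IKK leads to their degradation and frees the dimers to enter the nucleus. Several subunit and IκB genes are themselves NF-κB targets, and the resynthesis of IκBα is the textbook feedback loop that ends the response. The nuclear IκB proteins IκBζ (Nfkbiz) and IκBNS (Nfkbid) act instead on chromatin, where they modulate the transcription of selected secondary response genes such as Il6. These events concern proteins and their location, while the values given here are mRNA levels.

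Values are in CPM, the number of reads on a gene for every 1000000 reads on all genes of that library. The deposited values imply 14128128 to 38392592 reads on genes per library, and 3 reads correspond to 0.0781 to 0.212 CPM, far below the lowest value of any of the 10 genes. CPM are shares of a library, so a larger share taken by some genes and lower mRNA levels of the others cannot be told apart. The median of all 11978 genes tested moved by -0.50 (log2) with R848 and by -0.22 with the combined treatment against vehicle, against 0.02 with either polyU or PNPi+dG/rG. The cells matched their label, as 8 macrophage markers (among them Adgre1, Cd68 and Csf1r) summed to between 15200 and 18000 CPM, whereas the T cell genes Cd3e and Cd3d were at 0 in all 10 libraries. The R848 libraries stood apart in other markers. Of the 4 fibroblast markers, Col1a1, Col1a2, Dcn and Pdgfrb, the sum was 132 to 139 CPM with R848 and 0.393 to 4.85 CPM in the other 8 libraries. The sum of 5 neutrophil markers was 21.1 to 23.4 CPM with R848, mostly from S100a8 with Ly6g at 0, and 2.65 to 7.57 CPM elsewhere. A sum of 3 endothelial markers, mostly Kdr, was 20.8 to 23.4 CPM with R848 and 91.0 to 158 CPM elsewhere. The part that these differences play in the R848 values below was not tested. In bulk RNA, fewer cells of a type and less RNA per cell cannot be told apart.

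Stretches of sequence upstream of annotated start sites are shown for 5 of the genes, because sites bound by NF-κB have a recognisable sequence. Of these genes, 4 rose with both the combined treatment and R848, and the other, Nfkbid, fell with the combined treatment. Windows of Nfkb2 and Nfkbib, which overlap annotated exons, are not shown. Those of Rel and Rela also reached into an exon and were shortened there by 1 and 58 bases. In Rela this cut through a loose match 66 bases before the start, which is not marked. RefSeq's GRCm38.p6 promoter table held 7 of the 10 genes with 11 windows of 250 bases before a start. Capitals mark matches to GGGNNNNNCC on either strand (GGNNNNNCCC on the other), and overlapping matches run together. All stretches are written 5′ to 3′ on the strand of the gene and lie outside its exons in the GENCODE annotation.

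Nfkbia, chr12:55492648-55492897, minus strand: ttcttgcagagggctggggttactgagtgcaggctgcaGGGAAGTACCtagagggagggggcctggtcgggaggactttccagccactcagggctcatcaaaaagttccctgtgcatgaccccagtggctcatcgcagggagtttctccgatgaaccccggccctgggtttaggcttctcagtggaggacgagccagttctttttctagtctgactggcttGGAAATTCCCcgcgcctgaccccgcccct

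Nfkbie, chr17:45555450-45555699, plus strand: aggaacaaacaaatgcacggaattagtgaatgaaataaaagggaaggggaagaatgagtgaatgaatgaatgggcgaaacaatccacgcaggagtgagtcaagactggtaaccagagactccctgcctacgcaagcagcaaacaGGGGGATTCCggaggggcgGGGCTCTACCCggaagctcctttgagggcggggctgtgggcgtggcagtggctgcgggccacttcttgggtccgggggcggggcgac

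Rel, chr11:23770971-23771219, minus strand: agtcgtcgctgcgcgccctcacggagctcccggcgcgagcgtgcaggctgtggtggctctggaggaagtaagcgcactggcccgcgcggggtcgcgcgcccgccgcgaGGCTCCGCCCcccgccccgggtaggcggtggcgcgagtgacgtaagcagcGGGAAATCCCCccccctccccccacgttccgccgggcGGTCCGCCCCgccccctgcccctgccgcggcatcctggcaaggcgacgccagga

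Rela, chr19:5637291-5637482, plus strand: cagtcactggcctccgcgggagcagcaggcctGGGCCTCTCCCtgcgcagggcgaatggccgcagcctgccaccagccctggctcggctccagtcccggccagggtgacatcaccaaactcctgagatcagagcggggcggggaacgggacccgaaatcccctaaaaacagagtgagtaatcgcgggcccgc

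Nfkbid, chr7:30422156-30422405, plus strand, before a start that lies within the gene: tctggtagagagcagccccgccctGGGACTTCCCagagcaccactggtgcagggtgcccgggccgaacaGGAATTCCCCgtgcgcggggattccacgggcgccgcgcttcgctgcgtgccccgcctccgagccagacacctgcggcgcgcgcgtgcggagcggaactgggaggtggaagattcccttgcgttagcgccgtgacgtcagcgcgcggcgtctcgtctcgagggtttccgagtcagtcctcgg

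This loose motif was present in 10 of the 11 windows, the exception being that of Nfkbib, but also in 45.8% of all 32851 windows and 61.2% of the windows of genes tested. The stricter κB consensus was found in 7 of the 11 windows, against 3.90% of all windows and 4.63% of those of genes tested. Windows of a gene share sequence or position, and 3 of the 7 belong to Nfkb2, so by gene it was found in 5 of 7. Among the stretches shown, it was matched 29 bases before the start of Nfkbia, 106 bases before that of Nfkbie, 92 and 91 bases before that of Rel and 226 and 181 bases before the internal start of Nfkbid. In the whole Rela window no stricter match was found. Such a match is a description of letters and not evidence of binding in these cells. Nfkbid, whose mRNA moved differently from the others, held it as well, but only before that internal start. Its window just before the gene (chr7:30421481-30421730) and that before another internal start held no stricter match.

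Rel, Rela and Relb encode the subunits that carry a transactivation domain. Rel, the gene of c-Rel (chr11:23736847-23770970), was at 55.4 and 53.9 CPM with vehicle, 58.0 and 63.9 with PNPi+dG/rG, 65.2 and 61.8 with polyU, 249 and 230 with the combined treatment and 232 and 221 with R848. The first 3 groups lay close together and the last 2 overlapped each other well above them. Rel rose 1.16-fold with polyU (log2 0.22 ± 0.06 SE, adjusted p = 0.00929), 4.38-fold with the combined treatment (log2 2.13 ± 0.06, adjusted p = 3.96e-14) and 4.14-fold with R848 (log2 2.05 ± 0.06, adjusted p = 2.74e-14). Here and below, fold changes are from vehicle unless stated, and adjusted p-values are from limma over all genes tested. PNPi+dG/rG alone gave a log2 difference of 0.16 ± 0.06 that did not pass (adjusted p = 0.389). The small rise with polyU missed the threshold without library 2 of vehicle (adjusted p = 0.0529) or library 1 of polyU (adjusted p = 0.0683).

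Rela, the gene of p65 (chr19:5637483-5648130), moved little compared with the other subunit genes. It was at 109 and 115 CPM with vehicle, 114 and 116 with PNPi+dG/rG, 120 and 122 with polyU, 212 and 201 with the combined treatment and 244 and 255 with R848. The vehicle and PNPi+dG/rG libraries overlapped, and every group above them was separate from the next. Rela rose 1.85-fold with the combined treatment (log2 0.89 ± 0.048, adjusted p = 1.40e-10) and 2.23-fold with R848 (log2 1.16 ± 0.048, adjusted p = 2.38e-12), whereas its log2 difference with polyU was 0.11 ± 0.048 (adjusted p = 0.0769). Relb (chr7:19606217-19629438) encodes the partner of the Nfkb2 product in the noncanonical pathway. Its libraries gave 22.2 and 31.0 CPM with vehicle, 31.8 and 36.8 with PNPi+dG/rG, 75.9 and 86.8 with polyU, 170 and 161 with the combined treatment and 170 and 179 with R848. This was the noisiest of the 10 genes, with a standard error of 0.159 for each difference, because the vehicle libraries were far apart. Relb rose 3.09-fold with polyU (adjusted p = 1.95e-04), 6.31-fold with the combined treatment (adjusted p = 3.59e-06) and 6.64-fold with R848 (adjusted p = 1.88e-06).

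Nfkb1 and Nfkb2 encode precursor proteins that are processed to the DNA-binding subunits p50 and p52 and that, unprocessed, retain other subunits as IκB proteins do. For Nfkb1 (chr3:135584655-135691547) the libraries read 133 and 137 CPM with vehicle, 140 and 144 with PNPi+dG/rG, 217 and 224 with polyU, 797 and 783 with the combined treatment and 986 and 1000 with R848. None of these groups overlapped, although the step from vehicle to PNPi+dG/rG did not pass the test (log2 0.07 ± 0.04, adjusted p = 0.653). Nfkb1 rose 1.63-fold with polyU (adjusted p = 2.29e-09), 5.85-fold with the combined treatment (adjusted p = 1.16e-16) and 7.36-fold with R848 (adjusted p = 7.90e-18).

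Nfkb2 (chr19:46304320-46312385) was at 75.0 and 86.7 CPM with vehicle, 102 and 104 with PNPi+dG/rG, 211 and 220 with polyU, 607 and 612 with the combined treatment and 1009 and 1031 with R848. All 4 steps of this order passed the test. Nfkb2 rose 1.28-fold with PNPi+dG/rG (log2 0.35 ± 0.056, adjusted p = 0.009), 2.68-fold with polyU (adjusted p = 3.93e-11), 7.56-fold with the combined treatment (adjusted p = 5.25e-16) and 12.7-fold with R848 (adjusted p = 1.65e-17). The gene shares 531 exonic bases with the antisense RNA AC114539.1, listed at 6.00 to 25.8 CPM, and 299 with Psd, listed at 0.429 CPM or less. The kit kept the strand, but the strand setting of the counting is not given in the sources used here, so some of these reads may have been assigned to either gene.

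The classical IκB genes spanned a wide range of induction. Nfkbia, the gene of IκBα (chr12:55489410-55492647), was at 90.4 and 96.2 CPM with vehicle, 121 and 145 with PNPi+dG/rG, 310 and 312 with polyU, 1619 and 1629 with the combined treatment and 1386 and 1430 with R848. Its groups did not overlap, and PNPi+dG/rG+polyU lay at the top. Nfkbia rose 1.42-fold with PNPi+dG/rG (log2 0.51 ± 0.065, adjusted p = 0.00529), 3.33-fold with polyU (adjusted p = 4.56e-10), 17.4-fold with the combined treatment (adjusted p = 5.81e-15) and 15.1-fold with R848 (adjusted p = 4.13e-15).

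Nfkbib, the gene of IκBβ (chr7:28758251-28767512), was at 36.9 and 37.6 CPM with vehicle, 37.5 and 38.9 with PNPi+dG/rG, 62.5 and 69.6 with polyU, 142 and 154 with the combined treatment and 198 and 206 with R848. The vehicle and PNPi+dG/rG libraries overlapped (log2 difference 0.03 ± 0.062, adjusted p = 0.945). Nfkbib rose 1.77-fold with polyU (adjusted p = 6.01e-08), 3.97-fold with the combined treatment (adjusted p = 1.54e-13) and 5.42-fold with R848 (adjusted p = 5.70e-15). On the opposite strand it shares 314 exonic bases with Ccer2, at 0 CPM in every library, and 42 with Sirt2, at 128 to 157 CPM. Nfkbie, the gene of IκBε (chr17:45555703-45563169), was at 21.0 and 22.6 CPM with vehicle, 27.7 and 32.4 with PNPi+dG/rG, 71.0 and 74.3 with polyU, 188 and 173 with the combined treatment and 214 and 225 with R848. As for Nfkb2, the 5 groups were separate and each step between neighbours passed. Nfkbie rose 1.37-fold with PNPi+dG/rG (log2 0.46 ± 0.073, adjusted p = 0.009), 3.33-fold with polyU (adjusted p = 9.56e-11), 8.27-fold with the combined treatment (adjusted p = 6.58e-15) and 10.1-fold with R848 (adjusted p = 9.60e-16).

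The nuclear IκB genes stood at the opposite ends of the family. Nfkbiz, the gene of IκBζ (chr16:55811375-55838899), was at 13.1 CPM in each vehicle library, 17.4 and 21.6 with PNPi+dG/rG, 67.9 and 72.1 with polyU, 1514 and 1419 with the combined treatment and 1051 and 1060 with R848. Its 5 groups did not overlap, and PNPi+dG/rG+polyU lay at the top, as for Nfkbia. Nfkbiz rose 1.48-fold with PNPi+dG/rG (log2 0.57 ± 0.078, adjusted p = 0.00654), 5.35-fold with polyU (adjusted p = 1.13e-10), 112-fold with the combined treatment (log2 6.81 ± 0.078, adjusted p = 3.47e-16) and 80.7-fold with R848 (log2 6.33 ± 0.078, adjusted p = 2.04e-16).

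Nfkbid, the gene of IκBNS (chr7:30421732-30428746), was the only one of the 10 to fall in any comparison with vehicle. It was at 29.6 and 32.3 CPM with vehicle, 32.4 and 33.2 with PNPi+dG/rG, 35.5 and 38.2 with polyU, 24.0 and 19.8 with the combined treatment and 38.4 and 40.2 with R848. Both PNPi+dG/rG+polyU libraries were below the other 8, among which neighbouring groups did not pass the test on the deposited values. Relative to vehicle, Nfkbid fell 1.42-fold with the combined treatment (log2 -0.51 ± 0.09, adjusted p = 1.23e-04). It rose 1.27-fold with R848 (log2 0.34 ± 0.09, adjusted p = 0.00238) and 1.19-fold with polyU (log2 0.25 ± 0.09, adjusted p = 0.0365). With each library centred on its median gene, the rise with R848 was larger (log2 0.94, adjusted p = 1.08e-07). Nfkbid was then also higher with R848 than with polyU (log2 0.73, adjusted p = 2.14e-06). The fall remained after each library was centred on its median gene (log2 -0.30, adjusted p = 0.00918), while the rise with polyU then missed the threshold (adjusted p = 0.0796), as it did without library 1 of vehicle (adjusted p = 0.222) or library 2 of polyU (adjusted p = 0.21).

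**Figure D1:**
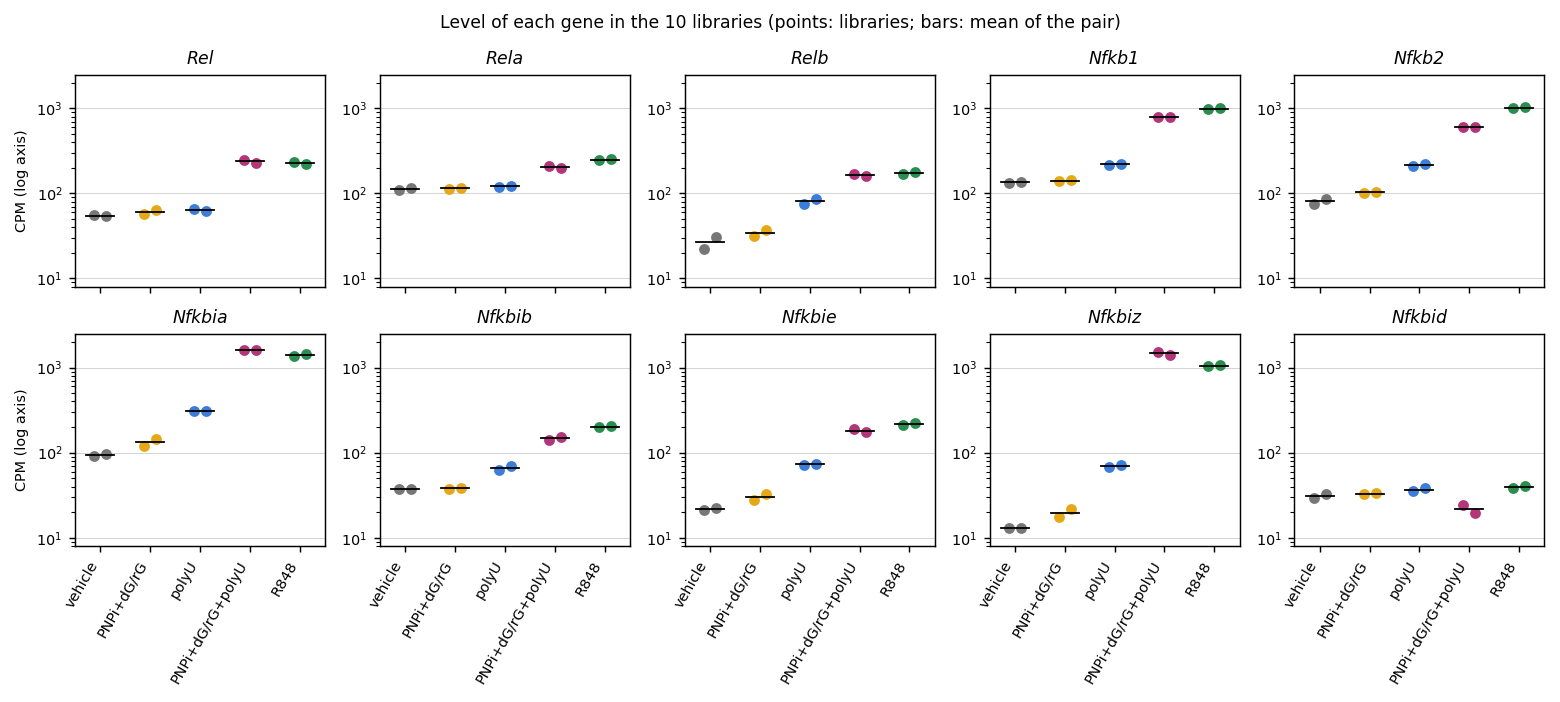
CPM of each gene (log axis) in the 5 groups, with points for libraries and bars for the mean of the pair. Nfkbiz ran from 13.1 CPM with vehicle to 1514 with the combined treatment, whereas Rela stayed between 109 and 255 CPM and the PNPi+dG/rG+polyU libraries of Nfkbid, at 24.0 and 19.8 CPM, were its lowest.

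Levels of different genes can be compared only per length, and for that the mean CPM was divided by the exonic length of the gene in kilobases. On this scale Nfkbia was the most abundant of the 10 mRNAs in every group, from 57.9 CPM per kb with vehicle to 1010 with the combined treatment and 875 with R848. Second in vehicle was Rela at 36.4 CPM per kb, and the lowest were Nfkbiz at 2.61, Relb at 6.84, Nfkbie at 7.16 and Rel at 7.32. With the combined treatment the second place went to Nfkbiz at 292 CPM per kb and the third to Nfkb2 at 133, whereas with R848 the level of Nfkb2, 223, was close to that of Nfkbiz, 210. Nfkbid went from 13.2 CPM per kb with vehicle to 9.33 with the combined treatment, the lowest of the 10 there. The exonic length is that of all annotated exons together, which overstates the length of an mRNA with alternative exons.

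PolyU alone raised most of the family. Of the 10 genes, 9 were higher than with vehicle at an adjusted p under 0.05, as were 20.6% of all genes tested, and Rela was the exception. At least 2-fold rises were seen for 5 (Relb, Nfkb2, Nfkbia, Nfkbie and Nfkbiz), against 3.21% of all genes. The median log2 difference was 1.12 over the 10 genes and 0.02 over all genes. PNPi+dG/rG without polyU raised 4 of the 10 (Nfkb2, Nfkbia, Nfkbie and Nfkbiz), compared with 0.409% of all genes, and none of them as much as 2-fold. The median difference was 0.25 over the 10 genes and 0.02 over all genes. These small rises depended on the estimate of the spread. With a plain empirical Bayes fit, which leaves out the trend and the robust estimate, adjusted p-values of the 4 genes were 0.218 to 0.285 and none was called, while 13 of all genes were called against 96 in the fit used here and 1076 at an unadjusted p under 0.05. Without library 1 of vehicle 2 of the 4 were called (Nfkbie and Nfkbiz were lost), and without library 2 of PNPi+dG/rG also 2 (Nfkb2 and Nfkbie were lost).

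With the combined treatment 9 of the 10 genes were higher than with vehicle, as were 22.2% of all genes, and 1, Nfkbid, was lower, as were 46.7%. At least 2-fold rises were seen for 8, all but Rela and Nfkbid, against 8.12% of all genes, and the median difference was 2.60 over the 10 genes and -0.22 over all. After R848 all 10 were higher than with vehicle, whereas 19.2% of all genes were higher and 62.9% lower. For 9, all but Nfkbid, the rise was at least 2-fold, against 8.89% of all genes, and the median difference was 2.81 over the 10 genes and -0.50 over all. When libraries were centred on their median gene, the split of all genes shifted to 33.2% higher and 33.2% lower with the combined treatment. With R848 it shifted to 43.0% higher and 34.6% lower. The 10 genes stayed at 9 called higher and 1 lower with the combined treatment and at 10 called higher with R848. Rela then also reached a 2-fold rise with the combined treatment (log2 1.10). These 4 comparisons share the vehicle libraries, so they are set side by side and not counted as independent.

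**Figure D2:**
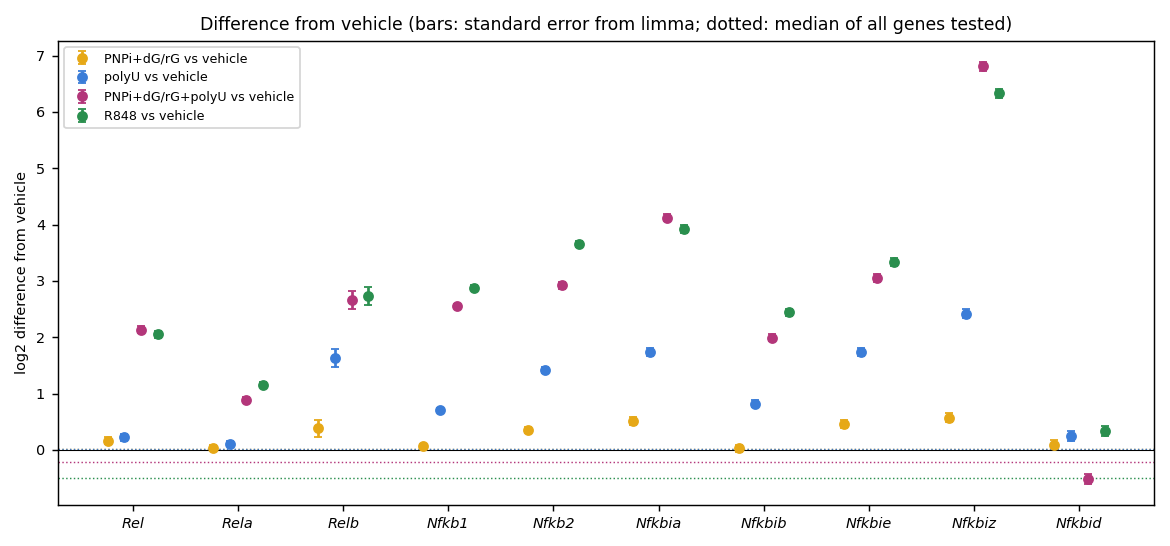
Log2 difference from vehicle of each gene under the 4 treatments, with points for estimates, bars for their standard errors and dotted lines for the median of all genes tested. With the combined treatment the values ran from -0.51 for Nfkbid to 6.81 for Nfkbiz, and with PNPi+dG/rG alone from 0.03 for Nfkbib to 0.57 for Nfkbiz.

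To ask whether polyU changed the response to PNPi+dG/rG, what PNPi+dG/rG did on top of polyU was compared with what it did on its own. In the presence of polyU, PNPi+dG/rG raised 9 of the 10 genes and lowered 1, Nfkbid, while 15.8% of all genes were higher and 47.5% lower. Rises were at least 2-fold for 8, against 5.29% of all genes. Added to polyU, PNPi+dG/rG raised Nfkbiz 20.9-fold (log2 4.39 ± 0.078, adjusted p = 5.51e-14), Nfkbia 5.23-fold (adjusted p = 2.94e-12) and Rel 3.77-fold (adjusted p = 3.36e-13), and it lowered Nfkbid 1.69-fold (log2 -0.76 ± 0.09, adjusted p = 2.61e-06). The difference between both effects, the interaction, was positive for 9 of the 10 and negative for Nfkbid, compared with 11.8% of all genes positive and 38.9% negative. It was at least 2-fold and positive for 6, against 4.55% of all genes. The median interaction was 1.14 (log2) over the 10 genes and -0.27 over all. Centring moved the split of all genes to 30.1% higher and 25.3% lower for the effect with polyU. For the interaction the split became 24.1% positive and 17.0% negative. In both, 9 of the 10 genes stayed positive and Nfkbid negative. Rela then also reached 2-fold for the effect with polyU (log2 1.03). Rela and Nfkbie also did so for the interaction (log2 1.02 and 1.14).

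By size, the interaction of Nfkbiz came first at 3.82 ± 0.111 (log2, adjusted p = 1.88e-11), followed by Nfkbia at 1.88 ± 0.092 (adjusted p = 2.85e-09), Nfkb1 at 1.77 ± 0.057 (adjusted p = 3.06e-12) and Rel at 1.76 ± 0.084 (adjusted p = 1.64e-10). Neither Nfkb1 nor Rel had passed the test with PNPi+dG/rG alone. Intermediate values were found for Nfkb2 (1.15 ± 0.079, adjusted p = 1.08e-08) and Nfkbib (1.13 ± 0.088, adjusted p = 4.76e-08). Smaller ones were found for Nfkbie (0.85 ± 0.104, adjusted p = 6.79e-06), Rela (0.73 ± 0.068, adjusted p = 3.55e-07) and Relb (0.64 ± 0.224, adjusted p = 0.0495). The call for Relb was at the threshold. It was lost in 9 of 19 alternative settings with adjusted p-values of 0.0567 to 0.139, among them those without either library of polyU, of PNPi+dG/rG or of the combined treatment. For Nfkbid the interaction was -0.84 ± 0.127 (adjusted p = 6.06e-05).

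**Figure D3:**
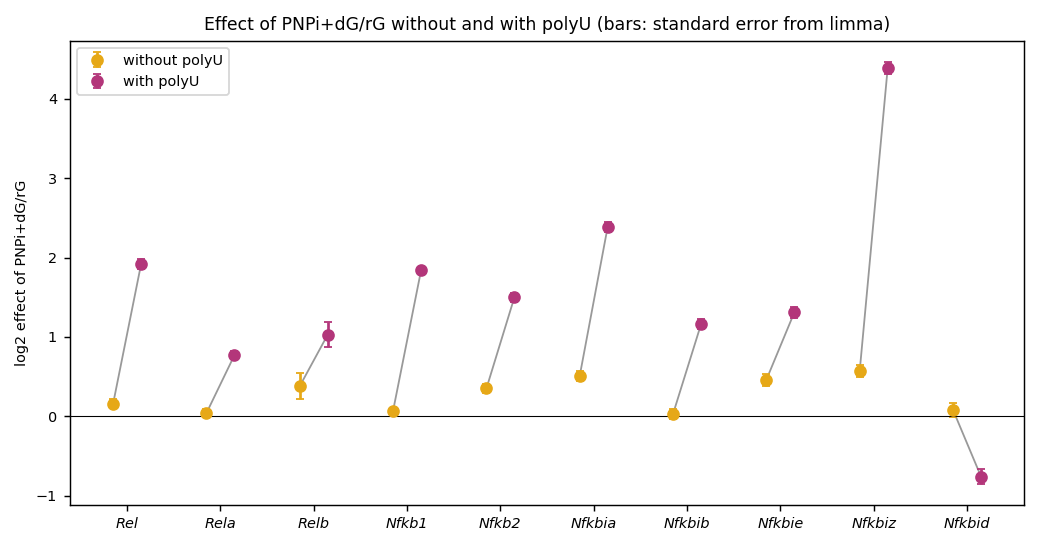
Log2 effect of PNPi+dG/rG without polyU (against vehicle) and with polyU (against polyU), joined by a line for each gene, with bars for standard errors. The line rises for 9 genes, most for Nfkbiz from 0.57 to 4.39, and falls for Nfkbid from 0.08 to -0.76.

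PNPi+dG/rG+polyU and R848 both engage TLR7, the former through ssRNA and guanine nucleosides and the latter as a synthetic ligand, and were compared directly. The former also included ulodesine, and DOTAP is named only for it. Each was given at a single dose, so kind of ligand, carrier and strength of stimulus cannot be told apart. On the deposited scale 2 of the 10 genes were higher with the combined treatment than with R848, as were 53.9% of all genes, and 6 were lower, as were 16.9%. Nfkbiz was 1.39-fold higher (log2 0.47 ± 0.078, adjusted p = 1.25e-04) and Nfkbia 1.15-fold higher (log2 0.21 ± 0.065, adjusted p = 0.0126). The call for Nfkbia was lost without either PNPi+dG/rG+polyU library (adjusted p = 0.0512 and 0.061) or library 1 of R848 (adjusted p = 0.0601). Lower with the combined treatment were Nfkbid 1.80-fold (adjusted p = 5.56e-07), Nfkb2 1.67-fold (adjusted p = 1.04e-08), Nfkbib 1.37-fold (adjusted p = 1.03e-05), Nfkb1 1.26-fold (adjusted p = 2.62e-06), Nfkbie 1.22-fold (adjusted p = 0.00291) and Rela 1.21-fold (adjusted p = 1.14e-04). Rel (log2 0.08 ± 0.06, adjusted p = 0.233) and Relb (log2 -0.07 ± 0.159, adjusted p = 0.694) did not pass the test.

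This comparison depended on scaling. The median difference was -0.28 over the 10 genes and 0.31 over all genes, so the family was lower relative to the other genes than its own values show. With libraries centred on their median gene, 0 of the 10 genes were higher and 9 lower, and all genes split into 28.4% higher and 37.5% lower. Nfkbia then turned to -0.18 (adjusted p = 0.0305) and Rel to -0.30 (adjusted p = 0.000368), and Nfkbiz was no longer called at 0.09 (adjusted p = 0.347). The 6 genes that were lower on the deposited scale were lower on both, with Nfkbid at -1.23 and Nfkb2 at -1.13 after centring.

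**Figure D4:**
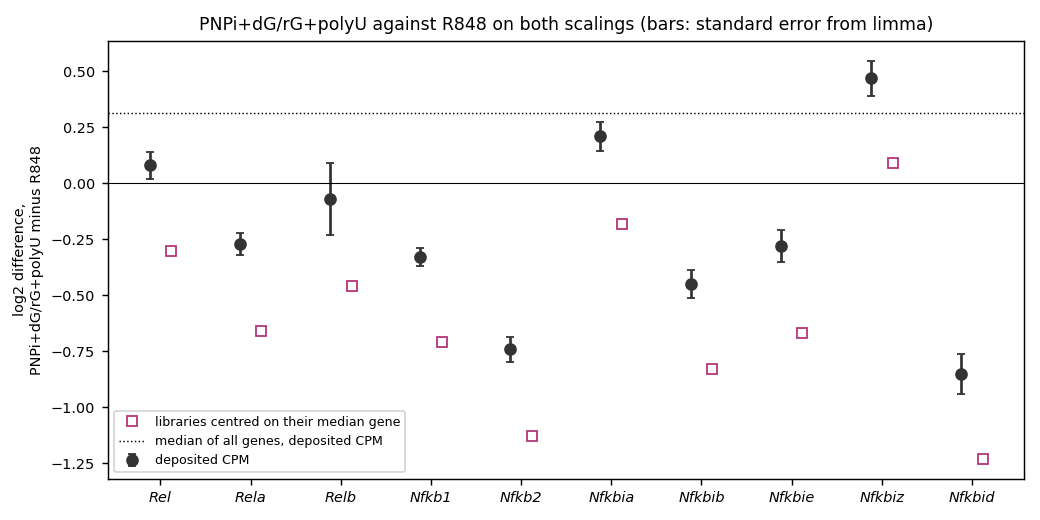
Log2 difference of PNPi+dG/rG+polyU from R848 for each gene, on the deposited scale (filled points, with standard errors) and with libraries centred on their median gene (open squares), with a dotted line at the median of all genes, 0.31. On the deposited scale only Nfkbiz, at 0.47, lies above that line, and after centring its value of 0.09 is the only one above 0.

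Ratios within a library do not depend on scaling, and the log2 ratio of each gene to Rela in the same library is given as a description. Nfkbiz went from -3.06 and -3.13 with vehicle to -0.82 and -0.76 with polyU, 2.84 and 2.82 with the combined treatment and 2.11 and 2.06 with R848. Nfkbia went from -0.27 and -0.26 with vehicle to 2.94 and 3.02 with the combined treatment and 2.51 and 2.49 with R848. Relative to Rela, both were thus higher with the combined treatment than with R848 in every library, and Rela itself was lower with the combined treatment (log2 -0.27), which adds to each of these ratios. Rel also had its highest ratios with the combined treatment, at 0.24 and 0.19 against -0.08 and -0.20 with R848. Nfkb2 had the opposite order, with 1.52 and 1.60 against 2.05 and 2.02, and Nfkb1 (1.91 and 1.96 against 2.02 and 1.97) and Nfkbie (-0.17 and -0.22 against -0.19 and -0.18) lay close together in both groups. Nfkbid fell to -3.14 and -3.35 with the combined treatment and to -2.67 in each R848 library from -1.88 and -1.83 with vehicle, so relative to Rela it was lower with R848 as well.

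**Figure D5:**
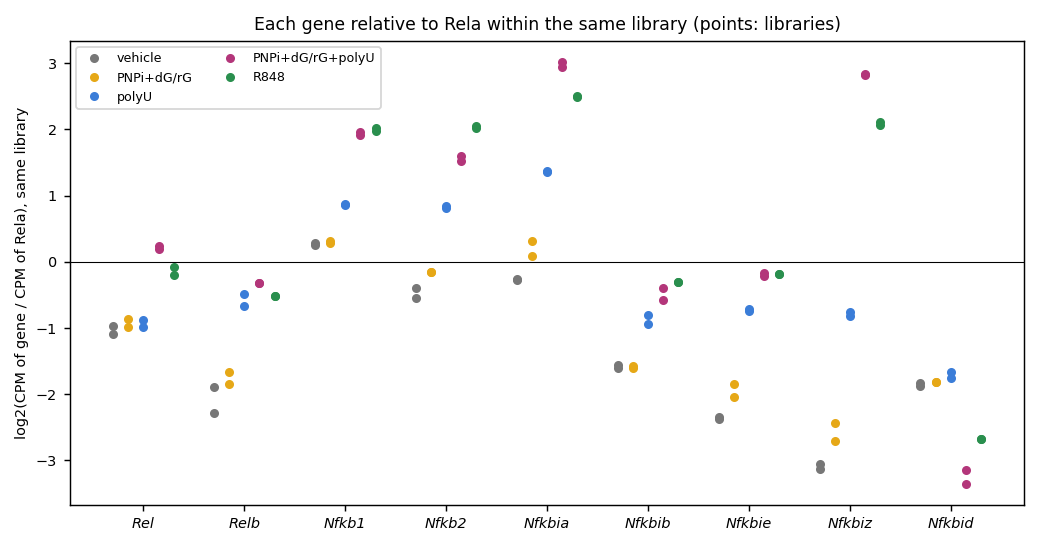
Log2 ratio of the CPM of each gene to that of Rela in the same library, with a point for each library. Nfkbiz ran from -3.13 with vehicle to 2.84 with the combined treatment, and Nfkbid was the only gene whose ratios were below those of vehicle with the combined treatment and with R848.

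Around these genes, 37 others of the pathway were followed, and all 37 were tested. With polyU 17 were higher and 2 lower than with vehicle, with PNPi+dG/rG 4 higher and 0 lower, with the combined treatment 17 higher and 6 lower, and with R848 16 higher and 14 lower. Of all genes tested, 20.6% were higher and 18.7% lower with polyU, 0.409% and 0.392% with PNPi+dG/rG, 22.2% and 46.7% with the combined treatment, and 19.2% and 62.9% with R848. The split depended on scaling, as with centred libraries 15 were higher and 5 lower with polyU, 2 and 0 with PNPi+dG/rG, 24 and 3 with the combined treatment, and 27 and 5 with R848. On the deposited scale the median differences of the 37 genes were 0.18, 0.07, 0.19 and 0.04. Of the 3 IKK complex genes, 2 were higher with the combined treatment and 2 with R848. Chuk, the gene of IKKα, was at means of 65.3 CPM with vehicle, 75.0 with the combined treatment (log2 0.20 ± 0.064, adjusted p = 0.0118) and 70.6 with R848 (adjusted p = 0.112). Ikbkb, the gene of IKKβ, rose 1.70-fold with the combined treatment (log2 0.76 ± 0.051, adjusted p = 1.95e-09) and 2.34-fold with R848 (log2 1.23 ± 0.051, adjusted p = 2.51e-12). Ikbkg, the gene of the scaffold NEMO, rose with R848 (log2 0.46 ± 0.056, adjusted p = 1.54e-06) and was at 0.10 ± 0.056 with the combined treatment (adjusted p = 0.109). With centred libraries all 3 genes were called higher with both treatments. Chuk was then at 0.71 with R848 (adjusted p = 3.15e-08) and Ikbkg at 0.32 with the combined treatment (adjusted p = 9.93e-05).

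Of 6 genes of deubiquitinases and A20 partners, 4 were higher and 0 lower with the combined treatment, and 4 were higher and 1, Otulin, lower with R848. Of all genes tested, 22.2% were higher and 46.7% lower with the combined treatment, and 19.2% and 62.9% with R848. With centred libraries the fall of Otulin was not called (log2 -0.09, adjusted p = 0.229). Tnfaip3, the gene of the ubiquitin-editing enzyme A20, was at 107 and 116 CPM with vehicle, 782 and 803 with the combined treatment and 1411 and 1454 with R848. Its log2 differences from vehicle were 0.48 with polyU (adjusted p = 2.00e-05), 2.83 with the combined treatment (adjusted p = 7.61e-15) and 3.69 with R848 (adjusted p = 2.00e-16). The A20 partners Tnip1 and Tnip3 rose by 0.85 and 0.63 (log2) with polyU and by 2.61 and 2.82 with the combined treatment. With R848 they rose by 3.59 and 3.05. Tnip2, also an A20 partner, was not called with the combined treatment (log2 0.14, adjusted p = 0.139). It rose by 0.20 with R848 (adjusted p = 0.0342). With centred libraries Tnip2 was called higher with both (log2 0.35 and 0.80). Bcl3, an IκB-like nuclear protein that binds p50 and p52 dimers, went from 11.0 and 12.1 CPM with vehicle to 185 in each PNPi+dG/rG+polyU library (log2 4.00 ± 0.077, adjusted p = 5.25e-16) and to 245 and 279 with R848 (log2 4.50 ± 0.077, adjusted p = 6.41e-17). The 4 pathway genes called with PNPi+dG/rG alone were Bcl3 (log2 0.40, adjusted p = 0.0264), Tnip3 (log2 0.33, adjusted p = 0.0109), Birc3 (log2 0.26, adjusted p = 0.0375) and Traf3 (log2 0.25, adjusted p = 0.0459), and 0 of them were called with plain eBayes (adjusted p = 0.285 to 0.316).

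Of 5 genes of the noncanonical arm, 3 were higher and 1 lower with the combined treatment, and 4 were higher and 1 lower with R848. The shares of all genes were again 22.2% and 46.7% with the combined treatment, and 19.2% and 62.9% with R848. Map3k14, the gene of the kinase NIK that drives processing of the Nfkb2 precursor, went from 29.1 and 28.4 CPM with vehicle to 10.6 and 12.5 with the combined treatment (log2 -1.32 ± 0.095, adjusted p = 4.79e-09) and 9.56 and 9.95 with R848 (log2 -1.56 ± 0.095, adjusted p = 3.31e-10). Birc3, a ubiquitin ligase (cIAP2) of the complex that degrades NIK, went the other way, from 27.6 and 26.6 CPM with vehicle to 306 and 300 with the combined treatment (log2 3.48 ± 0.055, adjusted p = 1.16e-16) and 393 and 389 with R848 (log2 3.85 ± 0.055, adjusted p = 8.53e-18). Its partners Traf2 and Birc2 rose by 1.77 and 1.23 (log2) with the combined treatment and by 1.50 and 0.60 with R848. Nearer the receptor, the adaptor Myd88 rose by 1.43 with the combined treatment and by 1.32 with R848. Tab1 and Tab2, which bind the kinase TAK1, moved in opposite directions with R848, by -1.70 and 1.07, and also with the combined treatment, by -0.96 and 0.47. Of the linear ubiquitin ligase, Rnf31 was 2.21-fold higher with the combined treatment (log2 1.14 ± 0.068, adjusted p = 4.42e-10) and Rbck1 fell with R848 (log2 -1.10 ± 0.068, adjusted p = 3.63e-10). Rnf31 also rose with R848 (log2 0.33, adjusted p = 3.61e-04), while Rbck1 was not called with the combined treatment (log2 -0.12, adjusted p = 0.134). Sharpin was at -0.01 with the combined treatment (adjusted p = 0.879) and at -0.34 with R848 (adjusted p = 2.22e-04). After centring, Sharpin was called higher with both (log2 0.20 and 0.25). Pdlim2, the gene of a nuclear ubiquitin ligase for p65, fell by 1.07 with R848 on the log2 scale (adjusted p = 8.89e-09). With centred libraries the R848 differences of Rbck1, Pdlim2, Tab1 and Map3k14 were -0.50, -0.48, -1.11 and -0.97, all still called.

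For each of the 10 genes, the 2 genes with the most similar profile were found among 8458 genes that averaged 10 CPM or more, by the root mean square difference (RMS) of their log2 values from the vehicle mean over all 10 libraries. Rela was closest to Tspan3 (RMS 0.045) and Spryd7 (0.066), and Nfkb1 to Stard5 (0.088) and Dram1 (0.098). Nfkbib was matched by Gch1 (0.108), Rel by Dusp1 (0.121) and Kctd12 (0.143), and Nfkb2 by Tfec (0.127) and Eva1b (0.143). Relb lay nearest Slc31a2 (0.140) and Ikbke (0.218), Nfkbia nearest the adhesion molecule gene Icam1 (0.196) and Icosl (0.231), and Nfkbie nearest Marcks (0.208) and Nfkb2 itself (0.226). Nfkbid was closest to Agpat2 (0.115) and Armc7 (0.139), whose log2 differences from vehicle with the combined treatment were -0.38 and -0.22. The median of all genes tested in that comparison was -0.22. Profiles were matched on these same libraries, so a shared direction follows from the choice. The genes nearest to Nfkbiz, Hcar2 (0.424) and Tnfsf15 (0.502), were farther off by RMS than those of the other 9. Their log2 differences with the combined treatment were 6.13 and 5.95. The RMS is not scaled to the size of a change, and Nfkbiz changed most. Its correlations with Hcar2 and Tnfsf15 over the libraries were 0.997 and 0.991.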

How the data were processed

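Reads of 50 bp were mapped by the authors with STAR to GRCm38, counted on Ensembl release 97 genes and deposited as CPM with an offset of 0.0001 on every value; replicates were not pooled. How reads overlapping several genes were counted is not given in the sources used here. Depth was computed from the step between low values, 100% of which were whole multiples of the value of 1 read (tolerance 0.05 reads). From there, log2 of the deposited values was fitted with limma 3.58.1 (R 4.3.3; eBayes with trend and robust estimates) over all 5 groups, for the 11978 genes that reached 1 CPM in 2 or more libraries. P-values were adjusted by Benjamini-Hochberg over all genes within a comparison, and a gene was called at an adjusted p under 0.05. The interaction is the PNPi+dG/rG effect with polyU minus that without. Scripts were tested on simulated data. The 10 genes, the 37 pathway genes and the markers were chosen with earlier results of these data known. Named genes were all 10 genes, 7 fixed pathway genes, other pathway genes changed at least 2-fold with PNPi+dG/rG+polyU or R848, and the nearest profiles, of which 1 is not reported here. Positions come from GENCODE M21 (GRCm38). Alternatives were other pseudocounts, filters, scaling, variance estimates and groups in the fit, a replicate block and leaving out each library.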

Additional observations from a re-analysis of the deposited data

Results flagged for a closer look

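The effect of PNPi+dG/rG differed between cells with and without polyU for all 10 genes, by limma's test of the interaction with adjustment over all genes, as it did for 50.7% of all genes tested. On the log2 scale they were 1.76 for Rel, 0.73 for Rela, 0.64 for Relb, 1.77 for Nfkb1, 1.15 for Nfkb2, 1.88 for Nfkbia, 1.13 for Nfkbib, 0.85 for Nfkbie, 3.82 for Nfkbiz and -0.84 for Nfkbid. The call for Relb was lost in 9 of 19 alternative settings (adjusted p up to 0.139), and its value rests on vehicle libraries that were far apart, at 22.2 and 31.0 CPM. It was 0.887 without library 1 of vehicle and 0.402 without library 2. Groups of 2 libraries were too small for a test of single outlying libraries.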

How the results depend on the processing

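Over the 10 genes and 7 comparisons there were 70 differences, each recomputed under 19 alternatives, and 58 kept their direction and their side of the threshold in all. Of the 1330 recomputed values 31 lost a call, 2 gained one and 2 reversed. Both reversals came from centring libraries in PNPi+dG/rG+polyU against R848, where Rel changed to -0.301 and Nfkbia to -0.177. With plain eBayes, PNPi+dG/rG against vehicle gave 13 genes (0 of the 10) in place of 96 (4 of the 10). Leaving out 1 library gave 10 to 107 genes and 2 to 4 of the 10 in that comparison, with fewest genes without library 2 of PNPi+dG/rG (10) and 48, 53, 54 and 63 without library 1 of PNPi+dG/rG, library 1 or 2 of PNPi+dG/rG+polyU or library 1 of vehicle. The lone library of a group was then assumed to vary like the others. Without library 2 of vehicle Relb was called there (log2 0.625, adjusted p = 0.0104) and Nfkbiz was not (adjusted p = 0.0539). Among other lost calls were Rel and Nfkbid with polyU (3 and 5 settings, adjusted p 0.0528 to 0.0683 and 0.0796 to 0.222) and Nfkbia against R848 (4 settings besides centring, adjusted p 0.0512 to 0.0685). Libraries with the same replicate number did not deviate together (median correlation of deviations -0.023, from -0.286 to 0.109 over 10 pairs of groups). The lowest values were those of PNPi+dG/rG with vehicle (-0.286) and with polyU (-0.273). With 2 libraries per group this cannot show whether libraries were paired. With the number as a replicate block, PNPi+dG/rG against vehicle gave 104 genes and 4 of the 10, and a block in which PNPi+dG/rG numbers were swapped, chosen after seeing the data, 140 genes and 4 of the 10; the uncrossed block changed no call for the 10 genes. A planned count test on reads worked back from the CPM was not run. Depth did not limit these genes, since all were far above 3 reads.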
